A study of Mus musculus with 11 samples.

Results

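The genes described here encode the constitutive proteasome, the protease complex that degrades ubiquitin-tagged proteins. They were chosen by name: every gene whose only symbol in the platform annotation begins with Psma, Psmb, Psmc or Psmd, without the interferon-inducible Psmb8, Psmb9 and Psmb10. This gave 37 of the 18193 genes with 1 symbol on the array, 16 of the core particle (Psma and Psmb) and 21 of the cap (Psmc and Psmd), each read from its brightest probe set. Expression was measured on 11 Affymetrix arrays of 3T3-L1 adipocytes, a mouse preadipocyte line turned into fat cells in culture. The 4 groups were processed on the same day after differentiation. Control cells (n = 3) were untreated. Chronic insulin cells (CI, n = 2) received insulin at 10 nM in 4 additions from noon of a day to the next morning, as a model of hyperinsulinemia. TNF cells (n = 3) were kept in TNFα at 2 ng/ml for 4 days, as a model of low-dose inflammation. DEX cells (n = 3) received dexamethasone, a synthetic glucocorticoid, at 20 nM for 8 days, as a model of insulin resistance caused by glucocorticoids. Dexamethasone was dissolved in ethanol (0.01%), which the protocol calls its control, but the label of the control arrays is no treatment, so drug and carrier cannot be told apart. The labels do not say that the arrays of a group came from separate cultures, so the spread that p-values measure is that between these arrays and may be technical.

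The proteasome has a barrel-shaped core with the proteolytic sites inside, and a cap that binds ubiquitin, unfolds the substrate and feeds it into the barrel. Psma genes encode the outer alpha rings that gate the barrel, and Psmb genes the inner beta rings, in which Psmb5, Psmb6 and Psmb7 carry the catalytic sites. Psmc genes encode the ATPase ring of the cap, which drives unfolding, and Psmd genes mostly its other subunits, which include scaffolds, a ubiquitin receptor and the deubiquitinase Psmd14. The transcription factor NRF1, encoded by Nfe2l1, is known to raise the subunit genes together when proteasome activity falls short.

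The name rule also took in genes outside the standard particle. Psmd5, Psmd9 and Psmd10 encode chaperones that help assemble the cap, Psmb11 a thymus subunit, Psma8 a testis subunit, and Psmc3ip a recombination cofactor that is no proteasome subunit. Psma8 lay at intensities of 33.1 to 47.2 over the 11 arrays, below the limit of 51.8 set for dim genes, and was not tested. The other 36 members, 15 of the core and 21 of the cap, were tested among 15622 genes on log2(intensity + 16), a scale that understates the change of dim genes. Psmb11 was the dimmest member tested, at 60.4 to 75.7.

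The 5 adipocyte markers found, such as Adipoq, summed to intensities of 83840 to 84630 in control, 85020 to 85700 in CI, 75270 to 76180 in TNF and 81990 to 85510 in DEX. Of these 5 markers 1 was higher in CI, 1 lower in TNF, and 1 higher and 1 lower in DEX (limma, adjusted p under 0.05). Their means in TNF and control were 7991 and 12440 for Cidec and 20890 and 22830 for Adipoq. For Fabp4 they were 21820 and 22630, for Lpl 18340 and 19430, and for Pparg 6534 and 7033. The 7 preadipocyte and fibroblast markers summed to 20630 to 23730 in control, 15300 to 15310 in CI, 27870 to 30270 in TNF and 15760 to 18320 in DEX. Of the 6 of these above the dim limit 5 were lower in CI, 4 higher in TNF, and 1 higher and 3 lower in DEX (limma, adjusted p under 0.05). The 6 macrophage and leukocyte markers summed to 807 to 867.2 in control, 722 to 823.7 in CI, 879 to 1009 in TNF and 808.8 to 842.8 in DEX, so that the TNF arrays were above all others. Of the 4 of these above the dim limit only Cd53 passed in TNF, as higher (0.61, limma adjusted p = 1.33e-05), with a mean of 210 against 131.9 in control. The other means in TNF and control were 96.63 and 108.2 for Adgre1, 472.3 and 445.3 for Csf1r, and 99.65 and 82.27 for Cd68. The markers thus did not all go the same way. The 3 endothelial markers summed to 420.6 to 425.1, 428 to 450, 392.3 to 401.2 and 423.9 to 458.3 in the same order, lowest in the TNF arrays. None of the markers was at 0. The 18 spike-in control probe sets had a median log2 difference from control of -0.23 in CI, -0.07 in TNF and -0.05 in DEX, and all 18 were below 0 in CI and in TNF and 17 in DEX. The part of these shifts in the results was not tested. In bulk samples such as these, fewer cells of a type and less RNA per cell cannot be told apart.

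The CI arrays show the proteasome genes after repeated additions of insulin. In CI, 17 of the 36 tested members rose and 0 fell (limma, adjusted p under 0.05 by Benjamini-Hochberg, taken over the 15622 tested genes), while 8.38% of all tested genes rose and 8.88% fell. At an unadjusted p under 0.05 in limma 25 were higher and 0 lower, beside 2287 higher and 2273 lower of the 15622 genes. The median log2 fold change was 0.22 over the members and 0.01 over all tested genes. All 6 ATPase genes of the cap rose, as did 7 of 11 other cap subunits, 3 of 8 beta genes and 1 of 7 alpha genes. The fold changes were small: the highest, of Psmc4, was 1.41-fold. The log2 fold change was above 0 in 35 of the 36 members and below it in Psmb11 (-0.06), which did not pass.

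**Figure D1:**
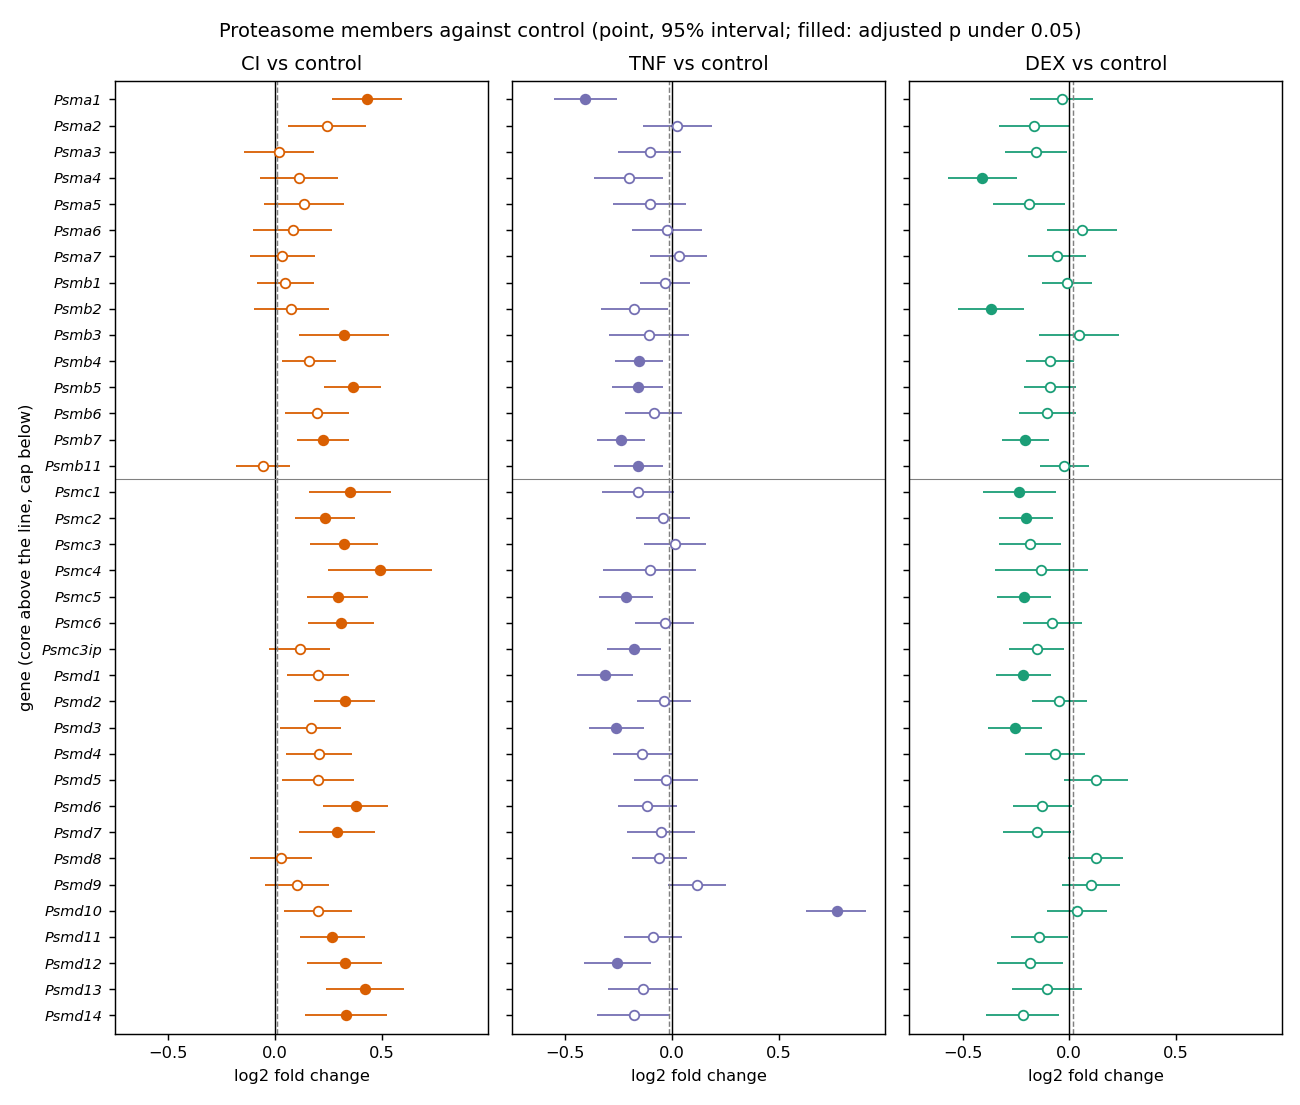
Log2 fold change against control (x axis) of the 36 tested members in CI, TNF and DEX, as points with 95% intervals of the limma fit. Filled points passed at an adjusted p under 0.05, the solid line marks 0 and the dashed line the median of all tested genes. In CI all points but that of Psmb11 lie above 0, and in TNF Psmd10 stands apart at 0.77.

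Among the catalytic genes, Psmb5, the chymotrypsin-like subunit, lay at 4777 and 4908 in CI against 3640, 3683 and 3960 in control. The groups did not overlap, and Psmb5 rose by 0.36 on the log2 scale (SE 0.0630, limma adjusted p = 0.00109), the smallest adjusted p of a member in CI. Psmb7, the trypsin-like subunit, lay at 9207 and 9886 in CI against 8137, 8004 and 8347 in control, again without overlap. It rose by 0.23 (SE 0.0581, limma adjusted p = 0.0148), but did not pass without CI replicate 2 (limma adjusted p = 0.148) or without control replicate 2 (limma adjusted p = 0.0539). Psmb6, the caspase-like subunit, lay at 3106 and 2863 in CI against 2535, 2544 and 2716. Both CI arrays were above every control array, yet its log2 fold change of 0.20 (95% interval 0.05 to 0.35) did not pass (limma adjusted p = 0.0648). Psmb6 passed under 3 of 22 alternatives, with the lowest adjusted p of 0.0425 in limma. These were a pseudocount of 64, leaving out DEX replicate 2, and the actin ratio covariate described below, which was chosen after seeing the data. The DEX arrays enter this comparison only through the estimate of spread that all groups share.

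The other core genes that rose were Psma1 and Psmb3. Psma1, an alpha ring subunit, lay at 6667 and 5731 in CI against 4309, 4530 and 4928 in control, and rose by 0.43 (SE 0.0777, limma adjusted p = 0.00144). With the mean of its 4 probe sets in place of the brightest, Psma1 did not pass (limma adjusted p = 0.0795). Psmb3, a structural beta subunit, lay at 3845 and 3006 in CI against 2637, 2699 and 2813. The CI arrays of Psmb3 lay above the control arrays but far from each other, and it did not pass without CI replicate 1 (limma adjusted p = 0.466). The alpha genes Psma3 (0.02, 95% interval -0.14 to 0.18) and Psma7 (0.04, -0.12 to 0.19) and the beta gene Psmb1 (0.05, -0.08 to 0.18) lay near 0.

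In the cap, Psmd6, Psmd13 and Psmd2 had the smallest adjusted p-values. Psmd6, a lid subunit, lay at 4215 and 3833 in CI against 2981, 3005 and 3292 in control, and rose by 0.38 (SE 0.0722, limma adjusted p = 0.00225). Psmd13, also of the lid, lay at 1188 and 1042 against 794.9, 780.6 and 908.4, and rose by 0.42 (SE 0.0857, limma adjusted p = 0.00338). Psmd2, a large scaffold of the base, lay at 5013 and 4508 against 3785, 3557 and 4035, and rose by 0.33 (SE 0.0669, limma adjusted p = 0.00358). In these genes every CI array exceeded every control array, as it did in 25 of the 36 members and in 24.0% of all tested genes. Psmd14, which cuts ubiquitin chains off the substrate, lay at 6329 and 5271 against 4252, 4571 and 4965 and rose by 0.33 (SE 0.0895, limma adjusted p = 0.0186). Psmd12, a lid subunit, lay at 3485 and 2978 against 2444, 2510 and 2748 and rose by 0.33 (SE 0.0820, limma adjusted p = 0.0122).

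The 6 ATPase genes rose by 0.24 for Psmc2 to 0.49 for Psmc4 on the log2 scale, with adjusted p-values of 0.00683 to 0.0234 in limma. Psmc4 lay at 2184 and 1817 in CI against 1382, 1383 and 1473 in control. Psmc5 lay at 2712 and 2982 against 2293, 2197 and 2465. The ring genes thus did not overlap between the groups, also in Psmc1 (2105 and 1779 against 1487, 1440 and 1619) and Psmc2 (6588 and 6258 against 5374, 5336 and 5651). Of the cap genes that did not pass, the lid gene Psmd8 lay closest to 0 (0.03, 95% interval -0.12 to 0.17). The scaffold gene Psmd1 (0.20, limma adjusted p = 0.0542) and the assembly chaperones Psmd5 (0.20), Psmd10 (0.20) and Psmd9 (0.10) did not pass either.

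The count in CI depended on which arrays were used. The number of all tested genes that rose was also lower without CI replicate 1, CI replicate 2 or control replicate 2. It was 1309 of 15622 with all arrays and 853 without control replicate 2. Without control replicate 2, 10 members rose. Fewer members also rose when CI replicate 1 or CI replicate 2 was left out. Such a fit assumes that the 1 CI array left varies as the arrays of other groups do, so sizes are given instead. Without CI replicate 1 the median log2 fold change was 0.185 over the members (0.14 core, 0.23 cap) and 0.007 over all tested genes. Without CI replicate 2 the medians were 0.267 over the members (0.17 core, 0.31 cap) and 0.009 over all tested genes. Psmb5 and Psmd6 passed under every alternative, though Psmb5 has 1 probe set, so that changing the probe set could not alter its values. The mean log2 difference of the members from the control mean was 0.28 in CI replicate 1 and 0.17 in CI replicate 2, beside -0.03, -0.04 and 0.07 in the control arrays. The 3' to 5' ratio of the actin control probe sets, a measure of RNA quality, was 1.82 in CI replicate 1 and 1.43 in CI replicate 2, the highest and the lowest of all arrays. With the log2 of that ratio as a covariate, an analysis chosen after seeing the data, 20 members rose and 0 fell. In that fit 1467 of all tested genes rose and 1607 fell.

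Other probe sets gave another readout of 18 of the tested genes. In CI all 30 of them that were above the dim limit had log2 fold changes above 0, with a median of 0.17, and 8 of the 30 passed in a fit over all probe sets. Psmc4 stood at 0.49 on its brightest probe set and 0.45 on the other. The probe sets of Psmd11, a lid subunit, disagreed: 0.27 on the brightest, 0.42 on another and 0.02 on yet another of higher intensity than the latter. In TNF 21 of the 30 had the sign of the brightest probe set and 1 passed, as lower. In DEX 20 of the 30 had that sign, 2 passed as higher and 2 as lower.

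Promoter sequences are shown for the genes on which these results turn: Psmb5 and Psmd6, which passed in CI under every alternative, Psmb6, the catalytic gene that did not pass in the fit as reported, and Psmd10, which moved most in TNF. They are the 250 bases before the start site from RefSeq (GRCm38.p6), 5′ to 3′ on the strand of the gene. Capitals mark a match to TGACNNNGC, searched on both strands, the core of the antioxidant response element bound by NRF1 and NRF2. The windows are chr14:54617996-54618245 (minus strand) for Psmb5, chr11:70525107-70525356 (plus strand) for Psmb6, chr14:14120946-14121195 (minus strand) for Psmd6 and chrX:140956712-140956961 (minus strand) for Psmd10.
Psmb5: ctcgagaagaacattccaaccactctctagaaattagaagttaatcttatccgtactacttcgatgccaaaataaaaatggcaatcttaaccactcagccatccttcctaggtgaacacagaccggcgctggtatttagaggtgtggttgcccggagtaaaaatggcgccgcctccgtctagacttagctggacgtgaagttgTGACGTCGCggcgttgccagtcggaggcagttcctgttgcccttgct
Psmb6: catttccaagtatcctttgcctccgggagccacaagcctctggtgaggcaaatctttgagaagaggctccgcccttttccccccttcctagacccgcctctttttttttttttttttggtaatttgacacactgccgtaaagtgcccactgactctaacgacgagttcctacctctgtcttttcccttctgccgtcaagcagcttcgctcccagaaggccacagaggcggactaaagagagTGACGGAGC
Psmd6: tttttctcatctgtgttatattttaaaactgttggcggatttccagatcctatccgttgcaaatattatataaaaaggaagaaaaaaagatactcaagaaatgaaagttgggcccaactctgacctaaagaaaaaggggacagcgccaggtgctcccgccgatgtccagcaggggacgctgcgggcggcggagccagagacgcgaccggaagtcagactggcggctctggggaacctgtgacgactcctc
Psmd10: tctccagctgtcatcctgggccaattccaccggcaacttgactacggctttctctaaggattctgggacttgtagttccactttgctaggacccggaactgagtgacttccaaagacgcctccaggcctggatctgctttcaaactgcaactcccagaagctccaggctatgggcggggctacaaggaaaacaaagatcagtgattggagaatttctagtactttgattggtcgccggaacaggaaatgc

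The match in Psmb5, TGACGTCGC, starts 47 bases before the start site, and that in Psmb6, TGACGGAGC, starts 9 bases before it. Psmd6 and Psmd10 have no match in this window. Of the 37 members, 30 had a promoter in the table. A gene counted if any of its promoters held the motif in the 300 bases from 250 before to 50 after the start. This held for 5 of the 30 (16.7%), against 14.0% of 27025 genes. The other 3 were Psmc6, Psmd12 and Psmd9. CCAAT, the box bound by NF-Y and searched on both strands, can share an end base with the other motif. It was in 13 of the 30 (43.3%) against 41.1% of all. Both shares lay close to those of all genes with a promoter, and a match describes letters, not binding.

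Core and cap members differed in size of change in CI. The median log2 fold change was 0.14 over 15 core members, of which 4 rose, and 0.29 over 21 cap members, of which 13 rose. The mean of the core members minus the mean of the cap members, as log2 differences from the control mean, was -0.109 and -0.103 in the CI arrays. It was -0.047, 0.037 and 0.010 in the control arrays, so both CI arrays lay below all control arrays. Without the 5 tested genes that are no standard subunits it was -0.110 and -0.123 in CI and -0.039, 0.045 and -0.006 in control. In the TNF arrays the mean difference was -0.065, -0.053 and -0.048 with all members, but 0.001, 0.005 and 0.006 without these genes, of which Psmd10 is 1. In the DEX arrays it lay between -0.029 and 0.003 with all members. In CI the difference of the medians, core minus cap, was -0.15, and it was -0.09 without CI replicate 1 and -0.10 without control replicate 2. No test is given for core against cap, since the members were chosen with earlier results of these data known.

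**Figure D2:**
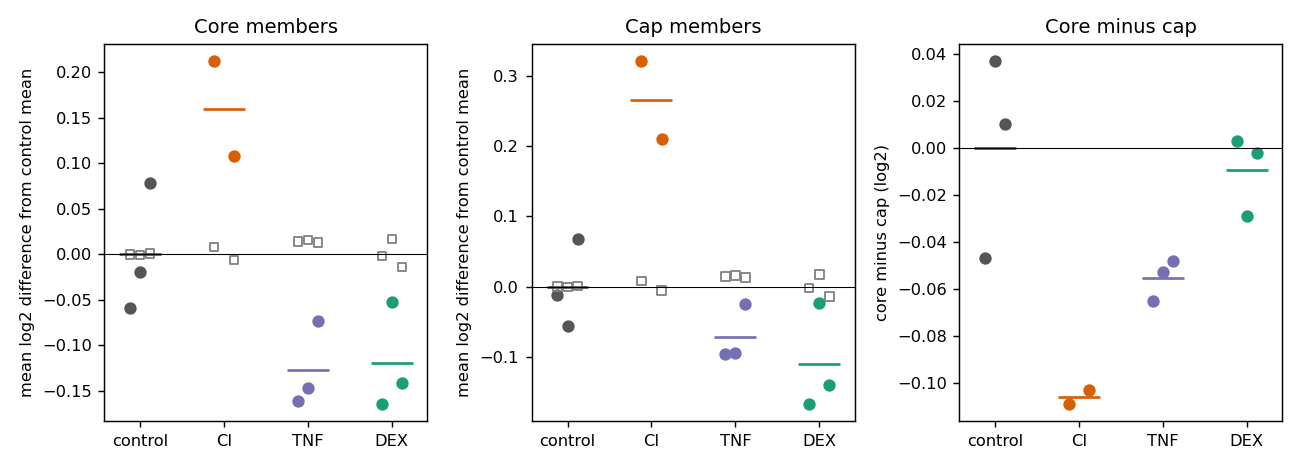
Mean log2 difference from the control mean in each array (points, with the group mean as a line) for the core members, for the cap members, and for core minus cap; open squares give the mean over all tested genes. The CI arrays are the highest for both parts, at 0.21 and 0.11 for the core and 0.32 and 0.21 for the cap, and the lowest for core minus cap.

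Under low-dose TNFα most of the members that passed were lower. In TNF 10 of the 36 members fell and 1 rose, where 11.3% of all tested genes fell and 13.9% rose. The median log2 fold change was -0.11 over the members and -0.01 over all genes, and 31 of the 36 lay below 0. Of the core 5 of 15 members fell, 4 of them beta genes. Of the cap 5 of 21 fell, 1 ATPase gene, 3 other subunits and Psmc3ip, and the medians of core and cap were both -0.11.

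Psmd10 was the member that rose. It encodes gankyrin, a chaperone that holds the ATPase subunits during cap assembly and leaves the finished particle. Its intensity was 904.6, 895.6 and 817.3 in TNF against 525.4, 481.7 and 506.7 in control, a 1.71-fold difference with no overlap (log2 0.77, SE 0.0658, limma adjusted p = 7.92e-07). The call held under every alternative, with log2 fold changes of 0.72 to 0.82. Psmd10 has 1 probe set, however, so the alternatives that changed the probe set read the same values again. In CI it lay at 607.3 and 558.2 and in DEX at 492.2, 563 and 498.7, so that all TNF arrays stood above all the others. The other cap chaperones Psmd5 (-0.03, 95% interval -0.18 to 0.12) and Psmd9 (0.12, -0.02 to 0.25) did not pass in TNF.

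Of the core genes, Psma1 fell most in TNF. It lay at 3554, 3278 and 3531 in TNF against 4309, 4530 and 4928 in control, without overlap, and fell by 0.41 (SE 0.0695, limma adjusted p = 5.34e-04). With the mean of its probe sets Psma1 did not pass (limma adjusted p = 0.105). Psmb7 lay at 7003, 6921 and 6811 against 8137, 8004 and 8347 and fell by 0.24 (SE 0.0520, limma adjusted p = 0.00349), a call kept under every alternative. The other catalytic genes moved less. Psmb5, at 3350, 3278 and 3452 against 3640, 3683 and 3960, did not overlap with control and fell by 0.16 (SE 0.0563, limma adjusted p = 0.0488), but missed the threshold under 12 of 22 alternatives. Psmb6, at 2332, 2408 and 2605 against 2535, 2544 and 2716, overlapped with control (-0.09, 95% interval -0.22 to 0.05). The dim Psmb11, at 63.7, 61.4 and 60.4 against 68.4, 68.8 and 75.7, fell by 0.16 (SE 0.0537, limma adjusted p = 0.0415) and missed the threshold under 11 of 21 alternatives. Psmb4, a structural beta subunit, fell by 0.16 (limma adjusted p = 0.0433) and missed it under 11 of 22.

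In the cap the scaffold gene Psmd1 lay at 2823, 2982 and 3066 in TNF against 3710, 3392 and 3960 in control and fell by 0.32 (SE 0.0608, limma adjusted p = 0.00145). The lid gene Psmd3 lay at 1375, 1343 and 1353 against 1746, 1488 and 1667 and fell by 0.26 (SE 0.0600, limma adjusted p = 0.00506). Neither overlapped with control, and both calls held under every alternative. Psmc5, the ATPase gene that fell, lay at 1966, 1939 and 2065 against 2293, 2197 and 2465 (-0.22, SE 0.0597, limma adjusted p = 0.0150). Psmd12, of the lid, lay at 2126, 2134 and 2170 against 2444, 2510 and 2748 (-0.26, SE 0.0733, limma adjusted p = 0.0187). Both had groups that did not overlap, as 13 members did downward (21.3% of all tested genes), but neither passed without TNF replicate 1, TNF replicate 2 or control replicate 3. The count of members that fell was 4 without each of these 3 arrays in turn. Of all tested genes 1246, 1273 and 1200 fell without them in that order, against 1758 with all arrays. Psmd14 overlapped with control at 3804, 3917 and 4439 (-0.18, 95% interval -0.35 to -0.01, limma adjusted p = 0.115), and it passed under 2 of 22 alternatives. Among these was the actin ratio as a covariate, chosen after seeing the data.

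**Figure D3:**
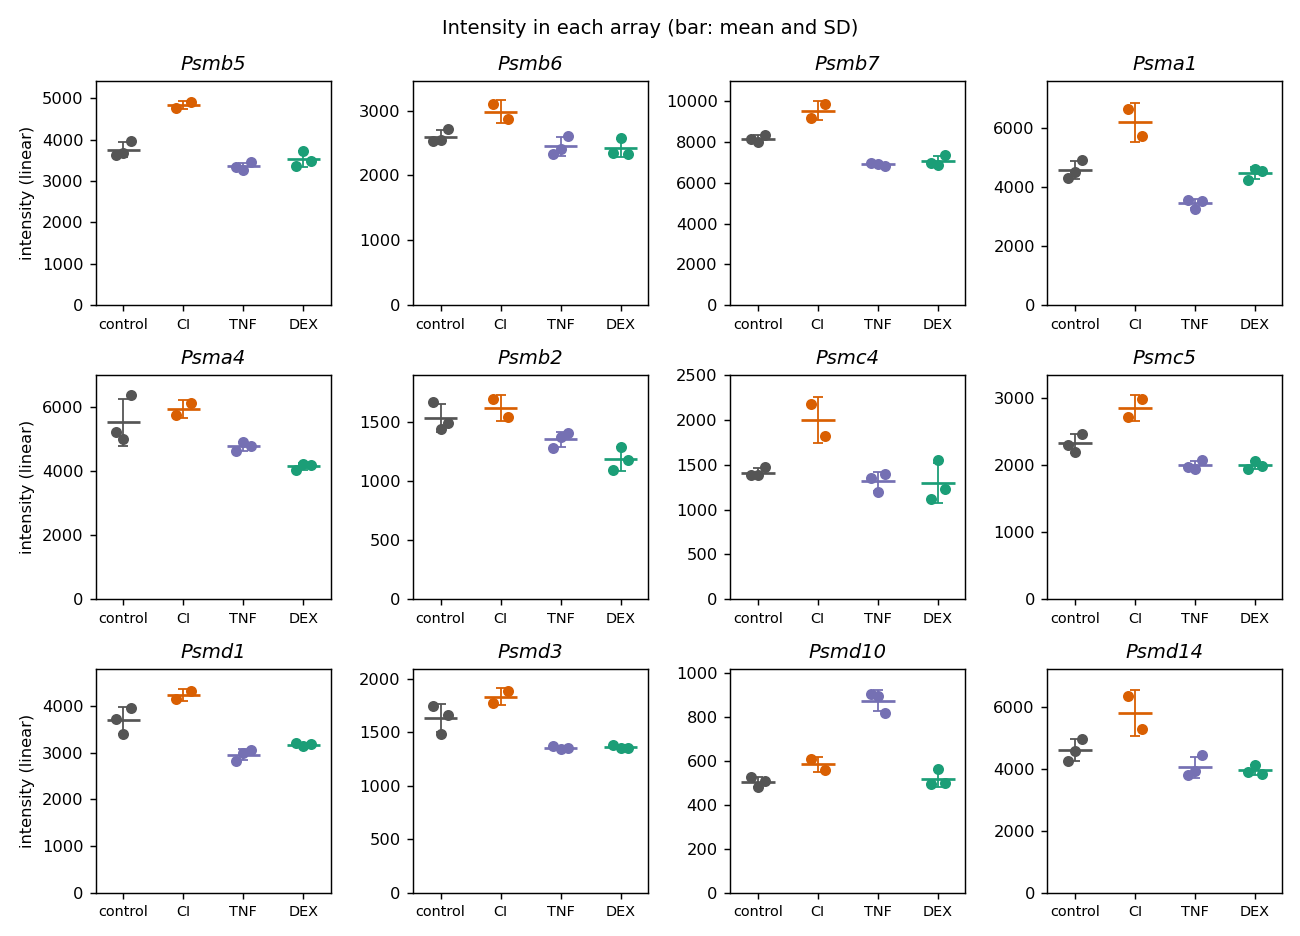
Linear intensity (y axis, from 0) in each array for 12 members by group, with the group mean and SD as bars. Psmd10 is high in the 3 TNF arrays, at 817.3 to 904.6. Psma4, Psmb2, Psmb7, Psmc5, Psmd1 and Psmd3 are lower in TNF and DEX than in control without overlap. Of these, Psma4 and Psmb2 did not pass in TNF (limma adjusted p = 0.063 and 0.092).

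The members that passed in DEX were all lower than control. In DEX 8 of the 36 members fell and 0 rose, where 13.6% of all tested genes fell and 14.0% rose. At an unadjusted p under 0.05 in limma 16 were lower and 0 higher, beside 2765 lower and 3153 higher of the 15622 genes. The median log2 fold change was -0.13 over the members and 0.02 over all genes. The core had 3 of 15 lower and the cap 5 of 21, among them 3 of the 6 ATPase genes, and the medians were -0.09 and -0.14.

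Psma4, an alpha ring subunit, fell most in DEX. It lay at 4014, 4228 and 4168 in DEX against 5196, 5006 and 6360 in control and fell by 0.41 (SE 0.0758, limma adjusted p = 8.28e-04). Psmb2, a structural beta subunit, lay at 1093, 1289 and 1180 against 1669, 1441 and 1493 and fell by 0.37 (SE 0.0731, limma adjusted p = 0.00146). Neither gene overlapped with control, and both calls held under every alternative. Of the catalytic genes Psmb7 fell, at 6995, 6887 and 7361 against 8137, 8004 and 8347 (-0.21, SE 0.0520, limma adjusted p = 0.00791), also under every alternative. Psmb5, at 3371, 3735 and 3497 (-0.09, 95% interval -0.21 to 0.03), and Psmb6, at 2354, 2577 and 2331 (-0.10, -0.24 to 0.03), overlapped with control and did not pass. Psma1, at 4245, 4612 and 4561, overlapped with the control arrays (-0.04, 95% interval -0.18 to 0.11).

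In the cap Psmd3 lay at 1386, 1352 and 1352 in DEX against 1746, 1488 and 1667 in control and fell by 0.26 (SE 0.0600, limma adjusted p = 0.00485) under every alternative. Psmc5, at 1940, 2062 and 1986 against 2293, 2197 and 2465, fell by 0.21 (SE 0.0597, limma adjusted p = 0.0146). Psmd1, at 3198, 3134 and 3176 against 3710, 3392 and 3960, fell by 0.22 (SE 0.0608, limma adjusted p = 0.0156). All 3 genes were below control without overlap, as were 12 of the 36 members and 18.7% of all tested genes. Psmc5 and Psmd1 missed the threshold without control replicate 3 (limma adjusted p = 0.0770 and 0.0848), and Psmc5 also without DEX replicate 1 (0.0540). The ATPase genes Psmc2, at 4602, 5044 and 4569 against 5374, 5336 and 5651, and Psmc1, at 1215, 1394 and 1253 against 1487, 1440 and 1619, fell by 0.20 and 0.23 (limma adjusted p = 0.0187 and 0.0421). They missed the threshold under 3 and 6 of 22 alternatives, each of which left out an array. Psmd14 lay at 3895, 4124 and 3818, below every control array, and its -0.22 did not pass (95% interval -0.39 to -0.05, limma adjusted p = 0.0571), though it passed under 7 of 22 alternatives. The actin ratio as a covariate, chosen after seeing the data, was among them.

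DEX replicate 2 stood apart from the other DEX arrays. The mean log2 difference of the members from control was -0.04 in it and -0.17 and -0.14 in DEX replicates 1 and 3, and its actin 3' to 5' ratio was 1.73 against 1.495 and 1.501. The count of members that fell was 14 without DEX replicate 2, 5 without DEX replicate 1, when 1 rose, and 4 without control replicate 3. Of all tested genes 2109, 1858 and 1846 fell in that order, against 2127 with all arrays. With the log2 actin ratio as a covariate 15 members fell, beside 2380 of all tested genes.

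The treatments were also compared with each other, where control arrays enter only through the estimate of spread that all groups share. In TNF 27 of the 36 members were lower than in CI and 1, Psmd10, was higher, where 17.3% of all tested genes were lower and 18.9% higher. In DEX 27 were lower than in CI and 0 higher, where 16.9% of all tested genes were lower and 17.1% higher. At an unadjusted p under 0.05 in limma 29 were lower in DEX and 0 higher, beside 3208 lower and 3288 higher of the 15622 genes. These comparisons share the 2 CI arrays. The median log2 difference of the members was -0.33 for TNF against CI and -0.41 for DEX against CI, while all genes had medians of -0.03 and 0.01. All 6 ATPase genes and 10 of the 11 other cap subunits were lower in each comparison, with Psmd8 the exception in both.

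The catalytic genes were all lower in both treatments than in CI. Psmb5 differed by -0.53 (limma adjusted p = 1.18e-05) in TNF and -0.45 (4.03e-05) in DEX, Psmb7 by -0.46 (1.81e-05) and -0.43 (3.12e-05), and Psmb6 by -0.29 (0.00489) and -0.30 (0.00314). In each of them every TNF and DEX array lay below both CI arrays. Over the members, this held for 30 of 36 in TNF (33.5% of all tested genes) and 26 of 36 in DEX (25.8%). The gene with the greatest difference was Psma1 in TNF, at 3278 to 3554 against 6667 and 5731 in CI (-0.84, SE 0.0777, limma adjusted p = 9.97e-07). Psmc4 differed by -0.60 in TNF and -0.62 in DEX (limma adjusted p = 7.76e-04 and 4.99e-04). Psma3, Psma6, Psma7, Psmb1, Psmb11, Psmd8 and Psmd9 passed in neither. Of these, Psma7 stood at -0.01 in TNF and -0.09 in DEX, Psmb1 at -0.08 and -0.06, and Psmd8 at -0.09 and 0.10.

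TNF and DEX differed little from each other in these genes. In TNF 4 members were higher than in DEX and 2 lower, where 18.2% of all tested genes were higher and 18.0% lower, and the median difference was 0.01. Psmd10 was higher in TNF by 0.74 (SE 0.0658, limma adjusted p = 4.49e-07), the only one of these calls to hold under every alternative. Psma4 (0.20, limma adjusted p = 0.0475), Psmc3 (0.20, 0.0348) and Psmc2 (0.16, 0.0491) were also higher in TNF. Psma1 (-0.37, limma adjusted p = 6.75e-04) and Psmd8 (-0.19, 0.0269) were lower.

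The inducible subunits Psmb8, Psmb9 and Psmb10 take the places of Psmb5, Psmb6 and Psmb7 in the immunoproteasome. Psmb8 lay at 2932, 2863 and 3069 in TNF and at 744.2, 964 and 767.9 in DEX, against 2196, 2107 and 2189 in control. Its log2 fold change was 0.45 in TNF (limma adjusted p = 6.67e-04) and -1.38 in DEX (4.01e-09). Psmb9 lay at 1659, 1717 and 1590 in TNF and 368.4, 435.2 and 365.6 in DEX against 1392, 1347 and 1335, with changes of 0.28 (limma adjusted p = 0.00709) and -1.76 (6.89e-11). These genes were thus above control in TNF and far below it in DEX, with no overlap. Psmb10, at 3478, 3486 and 3822 in TNF and 1934, 2313 and 2092 in DEX against 2462, 2430 and 2548, changed by 0.53 (limma adjusted p = 3.28e-05) and -0.23 (0.0159). In CI 0 of the 3 passed in limma (1 at an unadjusted p under 0.05, as lower), with log2 fold changes of 0.01, -0.19 and -0.07 for Psmb8, Psmb9 and Psmb10. Beside these, the constitutive Psmb5, Psmb6 and Psmb7 had 0.36, 0.20 and 0.23 in CI, -0.16, -0.09 and -0.24 in TNF, and -0.09, -0.10 and -0.21 in DEX.

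Beside the counts of related genes, 8.38% of all tested genes rose in CI, 13.9% in TNF and 14.0% in DEX, and 8.88%, 11.3% and 13.6% fell. Of the NRF1 pathway list, 8 of 9 genes were tested, and 4 rose and 0 fell in CI. Mafg, a small Maf partner of NRF1 and NRF2, rose by 0.41 (SE 0.0677, limma adjusted p = 7.72e-04), and Syvn1, a ubiquitin ligase of the endoplasmic reticulum, by 0.29 (SE 0.0576, limma adjusted p = 0.00305). Nfe2l1 itself did not pass in CI (0.09), TNF (0.05) or DEX (-0.18; limma adjusted p = 0.542, 0.642 and 0.0802). Nfe2l2, which encodes NRF2, rose in CI (0.28, limma adjusted p = 0.0105) and fell in DEX (-0.25, limma adjusted p = 0.00578). It did not pass in TNF (-0.01, limma adjusted p = 0.927). A link of either gene to the members was not tested. In TNF 1 gene of the list rose, the small Maf gene Maff (0.51), and 1 fell, Syvn1 (-0.32). In DEX 2 rose, Maff (0.54) and Mafk (0.33), and 2 fell.

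Of the 8 tested genes for proteasome activators and inhibitor, 1 rose in CI, Psme4 (0.27), which encodes a large activator of the core. In TNF Psme1, a subunit of the immune-type activator, rose by 0.34 and Zfand2a fell by 0.23, and in DEX 2 rose and 2 fell, Psme1 by 0.28 and Zfand2a by 0.31. Of the 6 genes listed as general assembly chaperones 1 rose in CI, Txnl1 (0.24), which encodes a thioredoxin-like protein bound to the assembled proteasome and is no assembly chaperone. The other 5, Psmg1 to Psmg4 and Pomp, gave 0 calls in CI in limma (2 at an unadjusted p under 0.05, as higher). In TNF 1 rose, the chaperone gene Psmg4 (0.26), and in DEX 0 passed in limma (1 at an unadjusted p under 0.05, as lower). Of the 5 tested cap-bound proteins, Uchl5, a deubiquitinase, rose in CI (0.20) and in DEX (0.19), and 0 passed in TNF in limma (0 also at an unadjusted p under 0.05).

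Of the 10 tested genes of p97 and the substrate shuttles, which pass ubiquitinated proteins to the proteasome, 3 rose and 1 fell in CI. The shuttle gene Rad23b rose by 0.46 (SE 0.0581, limma adjusted p = 1.05e-04) and Faf1 by 0.27 (SE 0.0676, limma adjusted p = 0.0113). In TNF 1 rose, Ubqln2 (0.28), and 2 fell, among them Ubqln1 (-0.31), and in DEX Ubqln2 rose (0.38) and Rad23b fell (-0.21). Of the list of ubiquitin genes and activating enzymes only Uba6 was matched by a lone symbol, and it rose in TNF (0.25). The other genes of these lists without such a match were not analysed here.

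**Figure D4:**
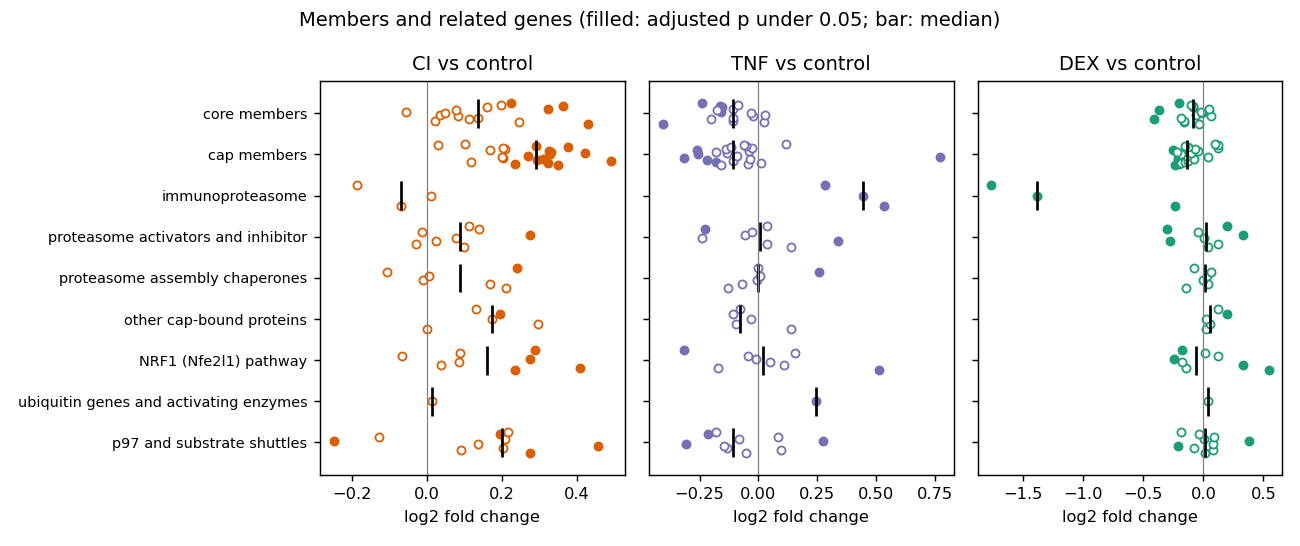
Log2 fold change against control (x axis, with its own range in each panel) of the core and cap members and of 7 lists of related genes in CI, TNF and DEX, each point a gene and each bar the median of its list (Txnl1 stands with the assembly chaperones). Filled points passed at an adjusted p under 0.05; the 3 immunoproteasome genes lie above 0 in TNF (median 0.45) and below 0 in DEX (median -1.38).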

How the data were processed

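The data are the submitters' value table of 11 Affymetrix mouse arrays. Its values are linear intensities per probe set as the authors deposited them. The summarisation and normalization behind them are not given in the sources used here. Between arrays the quartiles of the log2 values lay within 0.0763 of each other, below the limit of 0.1, so nothing further was normalized. Array medians were 124.5 to 129.5. Of 45101 probe sets, 34945 had 1 symbol and 932 several. The brightest probe set stood for each gene. Genes with a mean below the 25th percentile of non-control probe sets (51.8) were left out.

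The 15622 genes left were fitted on log2(intensity + 16) with limma 3.58.1 in R 4.3.3, all 11 arrays together with a mean per group, with two-sided tests and Benjamini-Hochberg adjustment over all genes. The script was tested on simulated data. The number of arrays limits the precision.

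Genes named with values in every array were the catalytic genes, Psmd14, the 3 core and 3 cap members of smallest adjusted p per direction, and members that passed in opposite directions against control; from the related lists, the immunoproteasome genes, Nfe2l1 and up to 2 per list and comparison. Psmb3, Nfe2l2 and some values beyond this were chosen after they were seen. Members and lists were chosen with earlier results of these data known. Alternatives changed the normalization, pseudocount, filter and probe sets, added a replicate block, or left out each array.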

Additional observations from a re-analysis of the deposited data

How the results depend on the processing

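Results were recomputed under up to 23 other settings. No call of a member changed sign. Calls kept under every setting were 2 of 17 in CI, 4 of 11 in TNF, 4 of 8 in DEX, 19 of 28 for TNF against CI, 20 of 27 for DEX against CI and 1 of 6 for TNF against DEX. Those kept in TNF (Psmb7, Psmd1, Psmd3, Psmd10) and DEX (Psma4, Psmb2, Psmb7, Psmd3) were of genes with 1 probe set each. So was Psmb5 in CI. For these genes the settings that changed the probe set read the same values, so dependence on the probe set was not tested. Median centring left 6 members lower in TNF and 1 lower in TNF than in DEX. A pseudocount of 1 left 2 higher in TNF than in DEX. With the mean of all probe sets, the core median minus the cap median was -0.089 in CI and -0.06 in TNF. With the actin ratio as a covariate 15 members fell in DEX and 4 were lower in TNF than in DEX. With strict subunits only, 0 rose in TNF and 0 were higher in TNF than in CI, since Psmd10 is left out. The covariate and the strict subunits were chosen after seeing the data. The cause of the other shifts was not tested.

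Leaving out 1 array at a time gave 5 to 21 members higher in CI, with core minus cap of -0.154 to -0.091. It gave 4 to 10 lower in TNF, 0 to 1 higher and 4 to 14 lower in DEX, and 1 to 5 higher and 1 to 3 lower in TNF than in DEX. Lower than in CI were 20 to 28 in TNF and 22 to 29 in DEX. The counts over all tested genes also changed with the array left out. In CI the lowest count was without CI replicate 1, a fit with 1 CI array left.

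With the replicate number as a block 6 members were lower in TNF, and no other count of calls moved by over 1.5 times. Whether the numbers pair the samples cannot be told from so few arrays. Deviations of same-numbered arrays correlated at -0.287 to 0.341 (15 pairs, 6 over 0.1). Those of arrays with different numbers correlated at -0.347 to 0.287 (30 pairs, 8 over 0.1). Of the 11 arrays, 6 correlated best with their own number. With 2 arrays in CI, their deviations from the group mean mirror each other by arithmetic, so the correlations that involve them are not independent. This does not bear on whether the 2 CI arrays are independent samples.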
